A study of Homo sapiens with 11 samples.

Results

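The BCL2 family apoptosis regulators described here were 10 human genes, chosen by name in the gene column of the deposited tables. BCL2, BCL2L1, MCL1 and BCL2L2 encode proteins that oppose cell death, and the proteins of BAX and BAK1 permeabilise mitochondria. BID, BBC3, PMAIP1 and BCL2L11 encode death-promoting BH3-only proteins. BAD, a further BH3-only gene, was not among the members. All 10 were found among the 25590 genes of the tables, and all 10 also passed the filter on low counts together with 16620 other genes. The study used PC-3, a human prostate carcinoma cell line, grown under the skin of mice from cells mixed with matrigel. The hosts were young male athymic nude mice (Crl:NU-Foxn1nu) in both groups, which lack mature T cells but still have macrophages and other innate cells. A2M mice received intraperitoneal injections of transformed alpha2-macroglobulin (A2M), the receptor-binding form of a proteinase inhibitor of human plasma, and PBS mice received the buffer. RNA of 5 PBS tumours (PBS_123 to PBS_127) and 6 A2M tumours (A2M_112 and A2M_128 to A2M_132) was sequenced, and only reads that the authors had assigned to the human cells entered the tables.

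Proteins of this family meet at the outer membrane of the mitochondrion. BAX and BAK1 oligomerise there and release cytochrome c, which activates caspases, whereas BCL2, BCL-xL (the main product of BCL2L1), MCL1 and BCL-w (the product of BCL2L2) bind the death-promoting members and hold them back. BH3-only proteins carry a short helix, the BH3 domain, that fits a groove of the guardians. BCL-xL and MCL1 are well-known guardians of carcinoma cells, and many of these proteins are controlled by modification and turnover that RNA levels do not show.

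The stretch all 10 genes share is the core of this BH3 helix, and its coding letters are printed to show how little of it is fixed between members. Each is the plus sense of the mRNA, 5′ to 3′, read from the GENCODE transcript of that gene on GRCh37, the build that equals the hg19 of the files. Capitals mark the codon of the conserved leucine (methionine in BCL2L2) and the codon pair of a glycine (alanine in BBC3) followed by aspartate.
BCL2 (chr18:60985588-60985611, minus strand): CTCcgccaggccGGCGACgacttc
BCL2L1 (chr20:30309731-30309754, minus strand): CTGagggaggcaGGCGACgagttt
MCL1 (chr1:150551347-150551370, minus strand): TTAcgacgggttGGGGATggcgtg
BCL2L2 (chr14:23777112-23777135, plus strand): ATGcgggcagctGGAGATgagttc
BAX (chr19:49459044-49459067, plus strand): CTCaagcgcatcGGGGACgaactg
BAK1 (chr6:33543170-33543193, minus strand): CTCgccatcatcGGGGACgacatc
BID (chr22:18222187-18222210, minus strand): CTCgcccaggtcGGGGACagcatg
BBC3 (chr19:47729842-47729865, minus strand): CTGcggcggatgGCGGACgacctc
PMAIP1 (chr18:57569905-57569928, plus strand): CTCaggagatttGGAGACaaactg
BCL2L11 (chr2:111907680-111907703, plus strand): TTGcggcgtattGGAGACgagttt

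These windows were found by translating the canonical coding sequence of every gene and searching for leucine or methionine, any 3 residues, glycine or alanine, aspartate, any residue, and then phenylalanine, isoleucine, leucine, methionine or valine. Each of the 10 members held exactly 1 match, within 1 coding exon. A pattern this loose was also present in 2032 of 19542 coding sequences (10.4%), so a match alone does not mark a BH3 domain. The coding sequences of the members ranged from 54 codons in PMAIP1, a very small protein, to 350 codons in MCL1.

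Depth and identity of the tumours were checked first. Between 16958533 (A2M_129) and 35874381 (PBS_127) reads were counted on genes. Epithelial markers were high in every tumour (KRT8 between 464.0 and 634.0 RPM, reads per 1000000 counted reads), whereas the prostate-specific KLK3 had no count and KLK2 had at most 1 count. Among markers of mouse host cells, the summed level of 4 endothelial genes was 16.3 to 23.8 RPM in PBS and 15.3 to 23.3 RPM in A2M tumours, carried by PECAM1 (14.0 to 22.4 RPM), while CDH5, VWF and KDR were at most 1.11 RPM. The sum of 5 macrophage and leukocyte genes was 24.8 to 33.6 and 24.7 to 33.5 RPM, carried by CD68 (19.4 to 28.4 RPM), while PTPRC, CSF1R and CD14 were at most 4.90 RPM and CD163 had at most 2 counts. The summed 5 fibroblast genes were 319.0 to 664.0 RPM in PBS and 320.0 to 920.0 RPM in A2M tumours, mostly COL1A1 (295.0 to 880.0 RPM). COL3A1 had 6.74 to 45.2 RPM and COL1A2 at most 5.29 RPM, with LUM at no more than 5 counts and DCN at no more than 3 counts. Whether those reads come from tumour or host cells was not tested. In such bulk tumours fewer cells of a type and less RNA per cell cannot be told apart.

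Levels of different genes were compared in RPKM (RPM divided by the exon length in kilobases), as deposited. The order of the means over 11 tumours was led by the guardians (plot of levels by tumour). BCL2L1 stood at 140.2 ± 21.0 RPKM (SD, n = 11), higher than 98.3% of the 22078 genes with reads. MCL1 followed with 71.1 ± 6.83 RPKM and BCL2L2 with 25.1 ± 1.20 RPKM.

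Of the effectors, BAK1 had 22.1 ± 1.30 and BAX 21.2 ± 2.04 RPKM. Among the BH3-only genes, PMAIP1, which encodes NOXA, a partner of MCL1, had 16.9 ± 2.55 RPKM, and BID, the link from death receptors to mitochondria, had 11.1 ± 1.09 RPKM. BCL2L11, encoding BIM, and BBC3, encoding PUMA, stood at 2.97 ± 0.42 and 2.52 ± 0.81 RPKM. BCL2, the founding member of the family, was last at 0.441 ± 0.111 RPKM (44 to 130 counts per tumour), higher than 31.9% of the genes with reads.

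**Figure D1:**
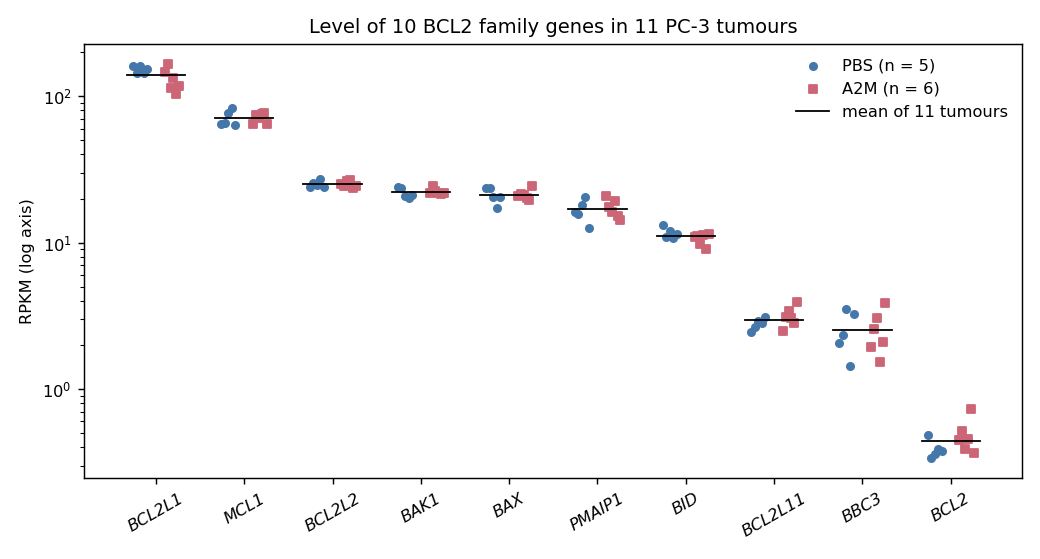
RPKM on a log axis of 10 BCL2 family genes in each of 11 PC-3 tumours, ordered by mean level (black line). Circles are 5 PBS tumours and squares 6 A2M tumours. BCL2L1 (104.0 to 166.7 RPKM) lay above every other member in each tumour and BCL2 (0.336 to 0.729 RPKM) below.

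Neighbours in this order were compared within the same tumours with a two-sided exact sign-flip permutation test of log2(RPKM + 0.1). The pairs and their direction were taken from these same tumours, so the p-values describe only how steady each step was between tumours. Each gene had a single exon length, and an error in it would not show in these p-values. BCL2L1 exceeded MCL1 in 11 of 11 tumours, by 1.96-fold (exact p = 0.000977, the smallest that 2048 sign patterns can give; adjusted over 9 pairs, p = 0.00176). MCL1 exceeded BCL2L2 by 2.82-fold in 11 of 11 tumours (exact p = 0.000977, adjusted p = 0.00176). BCL2L2 was above BAK1 in 10 of 11 tumours by only 1.13-fold (exact p = 0.00195, adjusted p = 0.00293).

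BAK1 and BAX were the neighbours that did not differ beyond their spread over all 11 tumours (1.05-fold, higher in 9 of 11, exact p = 0.0576). Without A2M_132, in which BAX was the higher of the pair, BAK1 passed (exact p = 0.00391, adjusted p = 0.00502). The step from BCL2L11 to BBC3 was also small, 1.22-fold in 9 of 11 tumours (exact p = 0.0254, adjusted p = 0.0286). It did not pass without PBS_126, A2M_130 or A2M_131 (exact p = 0.0508 and adjusted p = 0.0571 each), or without A2M_112 (exact p = 0.0469, adjusted p = 0.0527). Each of the remaining steps (BAX above PMAIP1, PMAIP1 above BID, BID above BCL2L11 and BBC3 above BCL2) held in 10 or 11 of 11 tumours, with adjusted p between 0.00176 and 0.01.

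Summed by role, the 4 guardians came to 236.9 ± 21.6 RPKM (n = 11), the 2 effectors to 43.3 ± 3.05 and the 4 BH3-only genes to 33.5 ± 2.35 RPKM. BCL2L1 alone made up 58.9% ± 4.40 of the guardian sum and MCL1 30.2% ± 3.57, whereas BCL2 contributed 0.189% ± 0.059. The guardians summed to 5.50 ± 0.68 times the effectors, with a range of 4.48 to 6.76 over tumours. By group, this ratio was 5.85 ± 0.73 in PBS (n = 5) and 5.21 ± 0.52 in A2M tumours (n = 6), with overlapping ranges of 5.04 to 6.76 and 4.48 to 5.81. Such sums describe RNA, cover only the members and were given no test. Relatives such as BOK, BIK, BMF and BCL2A1 were not in these sums.

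The family included genes at different ends of the levels seen in these tumours, and other relatives did so too. BNIP3 and BNIP3L, which encode mitophagy receptors, had 58.6 ± 16.9 and 39.8 ± 9.49 RPKM. BOK, an effector-like relative, had 25.3 ± 2.76 RPKM, BCL2L12 had 17.8 ± 1.47, the BH3-only gene BIK 10.6 ± 2.12 and BCL2L13 9.18 ± 0.51 RPKM. Lower in the order were BMF, another BH3-only gene, with 5.56 ± 1.18 RPKM, BCL2A1, a guardian best known from blood cells, with 1.54 ± 0.57, and BCL2L15 with 1.31 ± 0.14 RPKM. BCL2L14 had 3 to 14 counts per tumour, BCL2L10 at most 3 and HRK at most 4, and these genes were not tested.

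The study asked whether A2M changes the tumour cells. Counts were tested with edgeR's quasi-likelihood test, and a Benjamini-Hochberg adjusted p under 0.01 over all 16630 genes was required. Of the 10 members 0 passed, as did 0% of all genes, whose smallest adjusted p was 0.599. DESeq2 and limma-voom also called 0 members. At an unadjusted p under 0.05, 2 of 10 members differed, against 7.08% of all genes. Both (BCL2L1 and BID) were lower in A2M tumours and 0 were higher, where 3.53% and 3.55% of all genes were lower and higher. An unadjusted p of at most 0.01 by edgeR and by DESeq2 was reached by 0 members and by 1.45% of all genes. Groups did not overlap for 0 members and for 0.710% of all genes. The median log2 fold change over the members was -0.04, with 7 of 10 below 0, and that over all genes was -0.002. With library size as the only scaling 4 of 10 lay below 0.

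**Figure D2:**
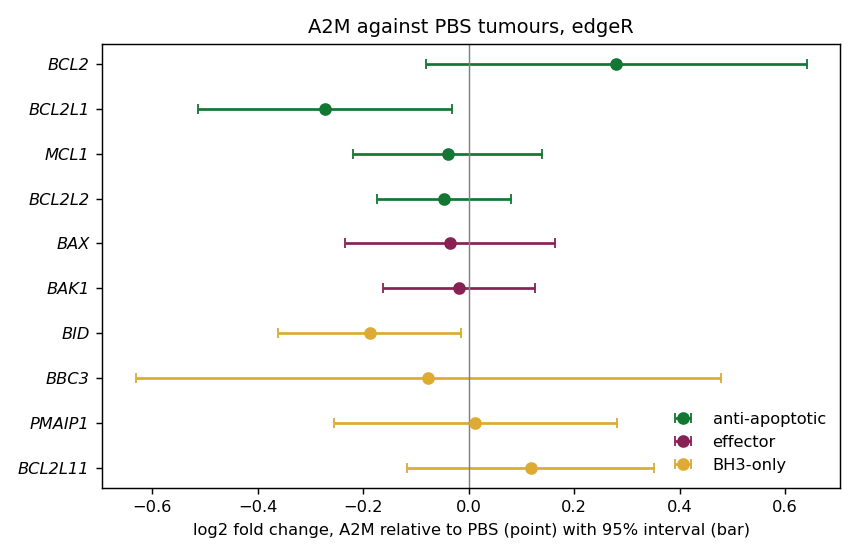
Log2 fold change of each member in A2M (n = 6) relative to PBS tumours (n = 5) on the x axis, with its 95% interval from the edgeR fit, coloured by role. The intervals of BCL2L1 (-0.51 to -0.03) and BID (-0.36 to -0.01) lay below 0, before adjustment for 16630 genes, and the other 8 included 0.

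BCL2L1 (chr20:30252255-30311792, minus strand) was the member with the smallest unadjusted p. Its normalised level in counts per 1000000 (CPM, with TMM scaling) was 406.2, 386.8, 429.1, 363.8 and 399.2 in PBS_123, PBS_124, PBS_125, PBS_126 and PBS_127. In A2M tumours the lowest value was 258.5 (A2M_131), the median 312.0 and the highest 423.9 (A2M_128). A2M_129, A2M_130, A2M_131 and A2M_132 lay below every PBS tumour, and A2M_112 and A2M_128 lay within the PBS range, so that the groups overlapped.

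The means were 397.0 ± 24.1 CPM in PBS and 328.6 ± 61.4 CPM in A2M tumours. This gave a log2 fold change of -0.27 (SE 0.11; edgeR, unadjusted p = 0.0295, adjusted p = 0.659). Leaving out each tumour in turn kept the log2 fold change between -0.36 and -0.21, and over all alternatives its adjusted p lay between 0.472 and 1.0.

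Depth moved with this level. Over 11 tumours, log2 CPM of BCL2L1 and log2 of the total count per tumour had Pearson's r = 0.755 (permutation p = 0.00657, adjusted over 10 members p = 0.0657) and Spearman's rho = 0.809 (permutation p = 0.00427, adjusted p = 0.0427). After group means were removed r was 0.659 (exact permutation p = 0.0836), and without the 2 tumours farthest from the median depth it was 0.693 (exact permutation p = 0.0227). With any 1 tumour left out r lay between 0.719 and 0.909. It passed only without A2M_131 (r = 0.909, permutation p = 0.00022, adjusted p = 0.0022). Only 48 of 16630 tested genes (0.289%) had a correlation with depth at least as far from 0. With log2 total count as a covariate, chosen after seeing the data, the log2 fold change of BCL2L1 was -0.14 (SE 0.11, edgeR unadjusted p = 0.21). A2M_129 (16958533 counts), A2M_132 (22310631) and A2M_130 (25672567) were shallower than every PBS tumour, the lowest being PBS_126 (26042224). Depth and group were thus partly confounded, and the part of depth in the difference was not tested further. In GENCODE an antisense gene, ABALON, shares 41.3% of the 4197 annotated exon bases of BCL2L1. The counts used RefSeq exons (2559 bases for BCL2L1), whose overlap with ABALON was not examined. Reads of ABALON in shared bases cannot be told apart without strand.

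BID (chr22:18216904-18257536, minus strand) had 34.6, 30.6, 33.4, 28.3 and 31.1 CPM in PBS_123, PBS_124, PBS_125, PBS_126 and PBS_127. The A2M tumours had 23.4 CPM at the lowest (A2M_131), 29.1 at the median and 29.6 at the highest. A2M_129 and A2M_131 lay below all PBS tumours, and the other 4 A2M tumours lay near the lowest PBS tumour, PBS_126. The group means were 31.6 ± 2.46 and 27.7 ± 2.54 CPM, a log2 fold change of -0.19 (SE 0.08; edgeR, unadjusted p = 0.0357, adjusted p = 0.679). Over all alternatives the log2 fold change lay between -0.23 and -0.13 and the adjusted p between 0.449 and 1.0.

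**Figure D3:**
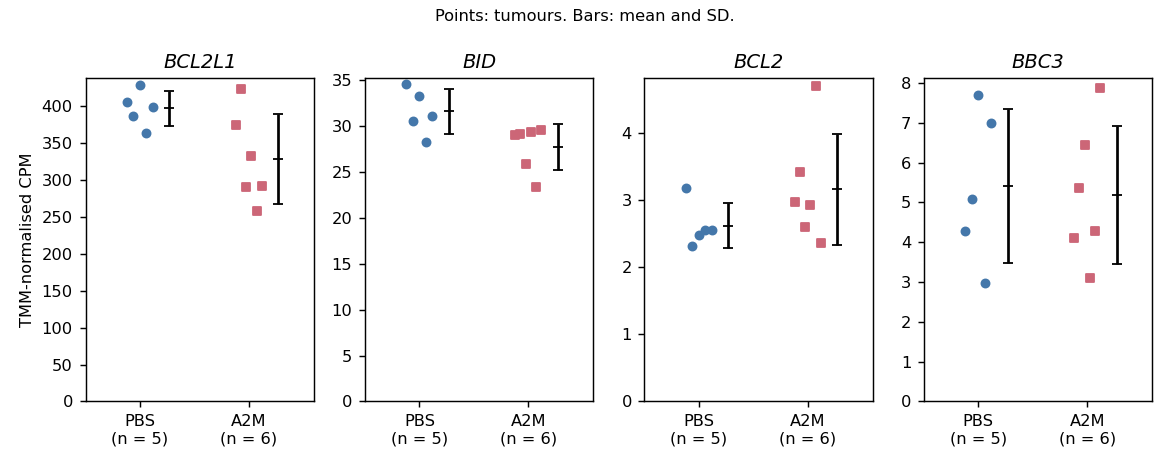
TMM-normalised CPM (y axes starting at 0) of BCL2L1, BID, BCL2 and BBC3 in 5 PBS and 6 A2M tumours, with points for tumours and bars for mean and SD. In BCL2L1, 4 of 6 A2M tumours lay below the PBS range, and 1 A2M tumour, A2M_131 with 4.69 CPM, stood above all others in BCL2.

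Of the other guardians, MCL1 (chr1:150533371-150552214, minus strand) ranged from 262.6 to 339.8 CPM in PBS and from 258.5 to 305.9 CPM in A2M tumours, with a log2 fold change of -0.04 (95% interval -0.22 to 0.14). BCL2L2 (chr14:23767999-23780960, plus strand) ranged from 87.5 to 98.5 and from 84.2 to 96.2 CPM, with -0.05 (-0.17 to 0.08). Only 5.06% of tested genes varied less within the groups than BCL2L2. Of its exon bases annotated in GENCODE 24.8% are shared with BCL2L2-PABPN1, HOMEZ or PPP1R3E. The overlap of the counted RefSeq exons was not examined. The readthrough gene BCL2L2-PABPN1 was listed at 0 counts in all 11 tumours. How reads shared between genes were counted is not known here, so this does not show whether the readthrough was transcribed.

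BCL2 (chr18:60790579-60987361, minus strand) had 3.18, 2.32, 2.48, 2.56 and 2.56 CPM in PBS_123, PBS_124, PBS_125, PBS_126 and PBS_127. Its lowest A2M value was 2.36 CPM (A2M_132), the median 2.95 and the highest 4.69 (A2M_131). A2M_128 and A2M_131 exceeded all PBS tumours, and the other 4 lay within the PBS range. The log2 fold change was 0.28 (SE 0.17; 95% interval -0.08 to 0.64; edgeR, adjusted p = 0.783). Without A2M_131 it was 0.14 (edgeR, unadjusted p = 0.334). With limma it was 0.23 on log2(RPKM + 0.1) (unadjusted p = 0.14) and 0.09 on log2(RPKM + 1) (unadjusted p = 0.136). A pseudocount of 1 exceeds the mean level of BCL2 (0.441 RPKM) and so shrinks its fold change.

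Both effectors lay close together in the groups. BAX (chr19:49458072-49465055, plus strand) had 22.4 to 32.0 CPM in PBS and 24.7 to 31.0 CPM in A2M tumours, a log2 fold change of -0.04 (95% interval -0.23 to 0.16). BAK1 (chr6:33540324-33548070, minus strand) had 44.3 to 53.7 and 46.1 to 52.9 CPM, a log2 fold change of -0.02 (-0.16 to 0.13). All 6 A2M tumours lay within the PBS range for each of these genes. The ratio of BAX to BAK1 in RPKM was 0.959 ± 0.062 in PBS and 0.953 ± 0.084 in A2M tumours.

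Among the remaining BH3-only genes, BBC3 (chr19:47724079-47736023, minus strand), a target of stress responses, was the member that varied most. It had 4.28, 5.09, 7.70, 2.98 and 6.99 CPM in PBS_123, PBS_124, PBS_125, PBS_126 and PBS_127. In A2M tumours it had 3.11 (A2M_130), 4.82 and 7.87 CPM (A2M_132) at the lowest, the median and the highest. High and low tumours occurred in both groups, which overlapped almost fully. Its spread within groups exceeded that of 95.1% of tested genes, and its log2 fold change of -0.08 had a wide 95% interval of -0.63 to 0.48. BBC3 rested on 78 to 255 counts per tumour, so counting error is part of this spread. Its spread was not compared with that of genes at a like level.

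PMAIP1 (chr18:57567228-57571537, plus strand) had 24.9 to 39.1 CPM in PBS and 26.8 to 40.3 CPM in A2M tumours, with a log2 fold change of 0.01 (95% interval -0.26 to 0.28). BCL2L11 (chr2:111876955-111926021, plus strand) had 15.2 to 19.6 and 15.5 to 23.7 CPM, with 0.12 (-0.12 to 0.35). The latter was 0.05 without A2M_132, 0.07 without PBS_123 and 0.03 with log2 total count as a covariate. A2M_132 was the highest of all in BCL2L11 as in BBC3.

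Further genes of the apoptosis pathway were read from the same fit. In 6 lists (other BCL2 relatives, apoptosome and caspases, mitochondrial release, inhibitors of apoptosis, death receptors, and regulators upstream of the members) 51 of 56 genes were tested, and 0 passed (edgeR, adjusted p under 0.01). At an unadjusted p under 0.05, 1 was higher and 3 were lower, where 3.55% and 3.53% of all genes were higher and lower. The median log2 fold change of the 51 genes was -0.03. Not tested besides BCL2L10, HRK and BCL2L14 were BIRC7 and FASLG.

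Of the 3 lower genes, BNIP3 and BNIP3L also belong to the BCL2 relatives. BNIP3 had 110.0 ± 23.3 CPM in PBS and 74.0 ± 19.4 CPM in A2M tumours, a log2 fold change of -0.58 (SE 0.18; edgeR, unadjusted p = 0.00769, adjusted p = 0.64). BNIP3L had 164.0 ± 32.8 and 119.8 ± 24.1 CPM, with -0.45 (SE 0.16; edgeR, unadjusted p = 0.0114, adjusted p = 0.64). ATF4, a transcription factor of the integrated stress response, had -0.13 (SE 0.06; edgeR, unadjusted p = 0.0476, adjusted p = 0.699).

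Among genes with a log2 fold change above 0, XIAP, an inhibitor of caspases, and CASP8, the initiator caspase of death receptors, had log2 fold changes of 0.10 and 0.18 (edgeR, unadjusted p = 0.129 and 0.158).

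BNIP3 and BNIP3L are known targets of hypoxia. A hypoxia score was also set beside the members, taken as the mean z-score of log2 CPM over 10 genes (CA9, VEGFA, NDRG1, ADM, ANKRD37, EGLN3, PDK1, SLC2A1, PFKFB4 and LDHA). These genes were listed with earlier results of these data known, so their comparison between the groups is a description only. Between the groups 0 of these 10 genes passed (edgeR, adjusted p under 0.01). At an unadjusted p under 0.05, 8 were lower in A2M tumours, where 3.53% of all genes were lower. The median log2 fold change over the 10 was -0.65. The score ranged from -0.66 (PBS_123) to 1.38 (PBS_125) in PBS and from -1.60 (A2M_131) to 0.33 (A2M_132) in A2M tumours. Its mean was 0.56 ± 0.81 in PBS and -0.47 ± 0.74 in A2M tumours (two-sided exact permutation test over 462 labelings, p = 0.0563).

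Of all members, BCL2 followed this score most closely, in the opposite direction. Over 11 tumours Pearson's r was -0.906 (permutation p = 6e-05, adjusted over 20 relations p = 0.0012) and Spearman's rho was -0.927 (permutation p = 0.00018, adjusted p = 0.0036). The relation held among tumours of the same treatment, since after group means were removed r was -0.898 (exact permutation p = 0.000139, adjusted p = 0.00278). With any 1 tumour left out r lay between -0.941 and -0.897. Without A2M_131 and A2M_128, the 2 farthest from the median score, r was -0.865 (exact permutation p = 0.00295), which no longer passed after adjustment (p = 0.059).

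Each of the 10 score genes on its own was negatively correlated with BCL2, with r between -0.93 (PFKFB4) and -0.72 (PDK1) and a median of -0.84. Among 16620 tested genes outside the score, 9 (0.0542%, BCL2 included) were as far below 0 as BCL2, and 58 (0.349%) were as far from 0 in either direction. BCL2 rested on 44 to 130 counts per tumour, so counting error is part of its spread. Genes of a tumour share its depth and composition, whose part in the relation was not tested. With log2 total count BCL2 had r = 0.0717 (permutation p = 0.824).

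**Figure D4:**
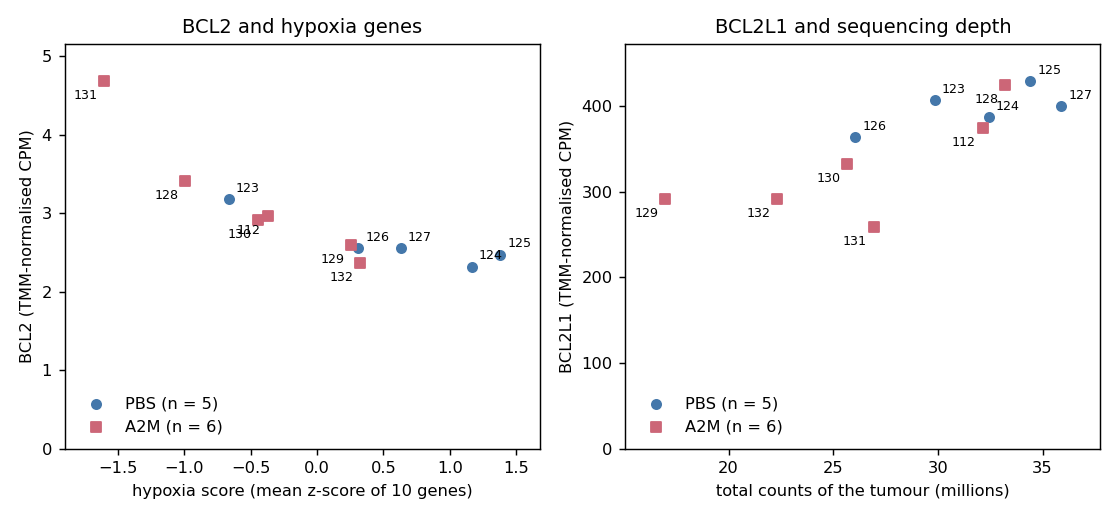
Left, BCL2 in TMM-normalised CPM against the hypoxia score of each tumour, falling from 4.69 CPM in A2M_131 to 2.32 CPM in PBS_124. Right, BCL2L1 in CPM against the total count of the tumour in units of 1000000 counts. Circles are PBS and squares A2M tumours, labelled with tumour numbers, and CPM axes start at 0.

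None of the other 9 members passed with the hypoxia score, with r between 0.0005 for BAK1 and 0.616 for BCL2L2 (adjusted permutation p = 0.307 for BCL2L2). A score over 8 genes of the integrated stress response (ASNS, CHAC1, TRIB3, SESN2, ATF3, DDIT4, PSAT1 and VLDLR), which is known to raise several BH3-only genes, gave its highest value with BBC3, r = 0.726 (permutation p = 0.0121, adjusted p = 0.121; rho = 0.727, permutation p = 0.0144). After removal of group means r was 0.725, and without the 2 tumours farthest from the median score it was 0.388. With any 1 tumour left out r lay between 0.619 and 0.867. It passed only without A2M_132 (r = 0.867, permutation p = 0.00152, adjusted p = 0.0152). PMAIP1, another known target of this response, had r = -0.286 (permutation p = 0.389). Between the groups, 3 of the 8 score genes had a log2 fold change above 0 and 5 below, from -0.55 (ATF3) to 0.23 (ASNS). Whether these genes vary together was not tested. The score averaged 0.027 ± 0.556 in PBS and -0.022 ± 0.364 in A2M tumours (two-sided exact permutation test over 462 labelings, p = 0.853).

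Correlations between the members themselves were computed for all 45 pairs over 11 tumours, and 0 had an adjusted permutation p under 0.05 (5 had an unadjusted p under 0.05). BCL2L1 and BID, which also had the smallest p between the groups, had the highest r, 0.807 (permutation p = 0.00159, adjusted p = 0.0715; rho = 0.727, permutation p = 0.014). After group means were removed it was 0.684, after a linear fit on depth 0.731, and without the 2 tumours farthest from the median of BCL2L1 0.488. With any 1 tumour left out r lay between 0.671 and 0.883. The pair passed only without A2M_128 or A2M_132, with r = 0.866 (adjusted permutation p = 0.0234) and r = 0.883 (adjusted permutation p = 0.0169).

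The effectors BAX and BAK1 had r = 0.717 (permutation p = 0.0126, adjusted p = 0.201; rho = 0.773), and without the 2 farthest tumours r was 0.429. With any 1 tumour left out r lay between 0.608 and 0.884. It passed only without A2M_132 (r = 0.884, adjusted permutation p = 0.0144). MCL1 and BAX varied in opposite directions with r = -0.711 (permutation p = 0.0134, adjusted p = 0.201; rho = -0.564), and -0.628 without the 2 farthest tumours. BCL2 and BCL2L2 passed only without A2M_132, with r = -0.814 (adjusted permutation p = 0.0364).

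**Figure D5:**
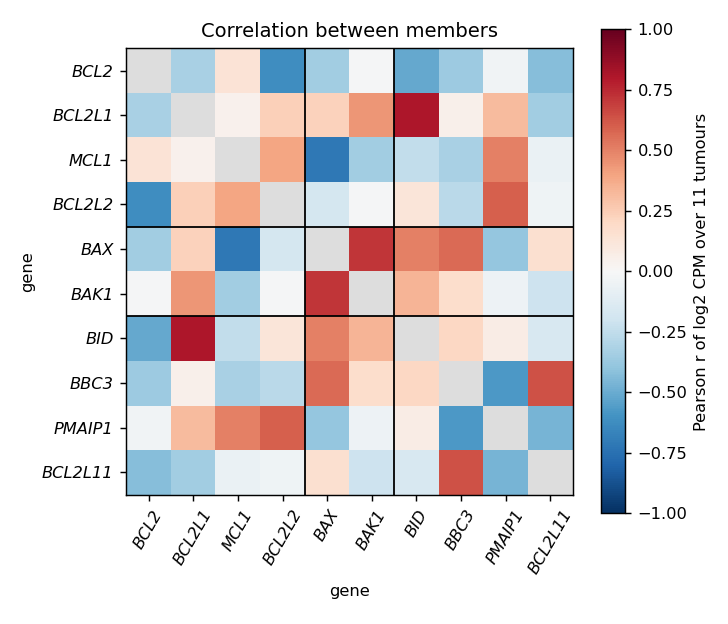
Pearson's r of log2 CPM over 11 tumours for each of 45 pairs of members, on a scale from -1 (blue) to 1 (red), with lines between guardians, effectors and BH3-only genes. BCL2L1 with BID (0.807) was the reddest square and MCL1 with BAX (-0.711) the bluest.

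For each member the gene with the most similar pattern was taken among 10589 others with a mean of at least 10 CPM, by Pearson's r of log2 CPM over 11 tumours. As the highest of so many values these r are a description only. BCL2 was most like RAD51C (r = 0.939), BCL2L1 like USP43 (0.932), MCL1 like GDAP2 (0.92) and BCL2L2 like NONO (0.919). BAX was most like VARS2 (0.977) and BAK1 like PUF60 (0.915). Of the BH3-only genes, BID was most like LRG1 (0.929), BBC3 like CAPN10 (0.948), PMAIP1 like NCEH1 (0.939) and BCL2L11 like IKBKB (0.957).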

How the data were processed

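RNA of 11 tumours was sequenced from libraries of the TruSeq RNA kit v2, which does not mark strand. The authors sorted the reads by species with xenome, mapped the human reads to hg19 with TopHat2 and counted them per RefSeq gene with featureCounts, and deposited these whole-number counts. They also deposited RPM (counts relative to all counted reads) and RPKM (RPM per kilobase of exon). Versions of xenome and featureCounts are not given in the sources used here, and the submitters' processing notes name bcl2fastq 1.8.4.

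Counts were filtered with filterByExpr, scaled by TMM factors and compared between groups by edgeR 4.0.16 in R 4.3.3 (glmQLFit and glmQLFTest), without covariates. SE is the log2 fold change over the square root of F. Log2 CPM had a prior count of 2, log2(RPKM) a pseudocount of 0.1, and correlations across 11 tumours 100000 permutations, those within groups or without 2 tumours exact ones. Permutation tests were run in Python 3.11.15 with scipy 1.17.1. The count fit was tested on simulated data. Replicates are single tumours named by group and labelled number, and as the labels do not give the mouse of each, p-values measure the spread between these tumours.

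Members and gene lists were chosen with earlier results of these data known. Named were the members, the BCL2 relatives, 3 pathway genes per direction (those of smallest p, 1 of which is not reported here), the gene most like each member, and pairs past the threshold or else the 3 with the largest r. BCL2 with BCL2L2 was named after its values were seen. Alternatives were other scalings, filters, thresholds and pseudocounts, DESeq2 1.42.0, limma 3.58.1, Spearman's rho, depth as covariate (added later) and each tumour left out. Totals of 16958533 to 35874381 counts make 3 counts equal to 0.0836 to 0.177 RPM. Positions and coding sequences are from GENCODE on GRCh37. Mouse reads were not analysed here.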

Additional observations from a re-analysis of the deposited data

Results flagged for a closer look

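Within-group outliers were searched with Dixon's test at the 95% level in 28 groups of tumours (10 members, the total count and 3 ratios, each in PBS and in A2M), and 3 stood out. Chance alone gives about 1 in 20 groups, here 1.4. BCL2 was 3.18 CPM in PBS_123, against 2.32 to 2.56 CPM in the other 4 PBS tumours. The ratio of BAX to BAK1 was 0.850 in PBS_126, below 0.979 to 1.00 in the others of its group. In A2M_132 the same ratio was 1.12, above 0.886 to 0.953 in the other 5.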

How the results depend on the processing

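No paired analysis was possible because the groups shared no tumour numbers, and the replicate block was therefore not fitted. No member and no pathway gene passed an adjusted p under 0.01 under any scaling, filter, test or left-out tumour, and DESeq2 called 1 of all genes. When edgeR and DESeq2 each had to give an unadjusted p no larger than 0.01, 241 genes passed (1.45%), among them 1 pathway gene (BNIP3) and 0 members. An unadjusted edgeR p under 0.05 was reached by 1178 genes (7.08%), including 4 pathway genes and 2 members.

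Of 210 alternative log2 fold changes of members, 189 kept their direction. Reversed, at sizes far within their intervals, were MCL1 (0.0039 with library size only, 0.0084 with limma on log2(RPKM + 0.1) and 0.0082 on log2(RPKM + 1)), BAX (0.0094, 0.016 and 0.015) and BAK1 (0.026, 0.027 and 0.026, and 0.0041 with depth as covariate), so that 4 members lay below 0 under these 3 scalings, which lack TMM factors. Leaving out single tumours moved MCL1 between -0.079 and 0.015, BAX between -0.105 and 0.017, BAK1 between -0.052 and 0.018, BBC3 between -0.235 and 0.085 and PMAIP1 between -0.071 and 0.085. BCL2, BCL2L1, BCL2L2, BID and BCL2L11 kept their direction throughout, but BCL2 moved between 0.14 (without A2M_131) and 0.36, BCL2L11 between 0.05 (without A2M_132) and 0.17, and BCL2L2 between -0.07 and -0.03 (without A2M_131) with 1 tumour left out. BCL2L2 was -0.003 with library size only. At an unadjusted p under 0.05 there were 0 members without PBS_123, PBS_125, A2M_129 or A2M_131, with library size only, or with depth as covariate, where between 682 of 16658 (without PBS_125) and 1330 of 16630 genes (library size only) passed this limit.

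In PBS tumours alone 0 neighbouring pairs of levels passed, since 5 tumours allow no exact p under 0.0625. The number of correlated pairs of members was 0 to 3 and that of members with scores 1 to 2 over the left-out tumours. That of members with scores was 0 without the 2 tumours farthest from the median, where BCL2 with the hypoxia score had r = -0.865 (exact permutation p = 0.00295 before adjustment). Counts of 44 to 130 limit BCL2, and 78 to 255 BBC3.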
